A study of Mus musculus with 8 samples.

Results

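The hippocampal transcriptome of exercised mice was set against that of sedentary mice over both diets of the study, with 4 arrays on each side and all 8 arrays of the series in use. Each exercised array has a sedentary partner with the same diet and the same dye, which gives 4 pairs, and the genes described are those whose exercised minus sedentary difference had the same sign in all 4 pairs. Of 20085 genes and transcripts tested, 5149 (25.6%) had 1 sign throughout, of which 2559 (12.7%) were higher and 2590 (12.9%) were lower in the exercised mice. That even split depends on how arrays were scaled to each other: 1928 were higher and 3142 lower with the scaling percentile taken over the spots of all array columns, 3119 and 1953 with the array median, and 2997 and 2303 with quantile normalization.

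All mice were male C57BL/6J, 11 weeks old when obtained, with 8 mice in each of 4 groups. The exercised groups ran on a treadmill at a mild intensity set from the ventilatory threshold: ME ate a placebo diet and AX+ME a diet with astaxanthin, a carotenoid pigment of the alga Haematococcus pluvialis. The sedentary groups were SED on the placebo diet and AX on the astaxanthin diet. The powder added to the food made up 0.5% of it by weight, and the astaxanthin powder held 2% astaxanthin. The length of training, the time between the last run and dissection, and how the RNA of 8 mice became 2 samples per group are not given in the sources used here. The labels do not state whether both samples of a group are from different animals, so a p-value here reflects only the spread between samples, which may be technical. Each sample lay alone on 1 array of a single slide with 8 arrays, the first of each group labelled with Cy3 and the second with Cy5. Each group filled 1 column of the slide, so array position cannot be told apart from group.

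Values are given as relative signal, the spot's intensity divided by the 75th percentile of its array, and differences are log2 of that ratio, exercised minus sedentary. The 75th percentile lay between 1496 and 2363 intensity units, 63.1% to 76.3% of spots were well above background, and arrays of the same dye correlated at 0.990 to 0.998 across genes. Only spots from array column 70 on were used, since both SED arrays had dim areas at lower columns. All 10 hippocampal and neuronal markers were well above background on all 8 arrays, 5 of them on the columns used and the other 5 judged on the columns left out, where alone they had a probe. The number of arrays, 4 on each side, limits the precision of every difference.

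The hippocampus forms new memories and is 1 of the few places where the adult mammalian brain makes new neurons, a process that running is known to raise in rodents. Next to it, in the ventricles, lies the choroid plexus, a folded sheet of epithelium over blood vessels that makes the cerebrospinal fluid by moving ions and water and that secretes carrier and growth-controlling proteins into it. Ciliated ependymal cells line the ventricle wall and move this fluid, and meningeal fibroblasts cover the brain's outer surface and reach between its folds. Bulk RNA from a dissected hippocampus holds whatever of these neighbouring tissues came with it, and in such samples fewer cells of a type and less RNA per cell cannot be told apart.

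No gene passed the test for an exercise difference over both diets (limma with diet and dye as additive terms, Benjamini-Hochberg adjusted p below 0.05, 0% of 20085), and 4 genes or transcripts shared the smallest adjusted p of 0.0749. At an unadjusted p below 0.05 there were 2994 genes (14.9%), 1427 higher (7.1%) and 1567 lower (7.8%). With genes limited to the 17796 that were well above background on all 8 arrays, the same limma test called 9, of which 7 were lower in exercised mice, and 5 of those 7 were choroid plexus genes (F5, Kcne2, Otx2, Folr1 and Wfdc2). The other 4 were the olfactory receptor gene Olfr1232 and Xlr3b, both higher, and 2 lower transcripts with no symbol. The median difference over all genes was close to 0, at -0.00092, with 9961 genes above 0 (49.6%) and 10124 below (50.4%).

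The clearest group was the choroid plexus list, whose genes were lower in exercised mice on either diet. Of its 19 genes 15 were tested, and the other 4, the water channel gene Aqp1 among them, had a probe only in the columns left out. All but 1 of the 15 tested, 14 genes, were lower in all 4 pairs, where 12.9% of all genes were, and the same 14 had an unadjusted p below 0.05 in that direction, where 7.8% of all genes did. The median difference over the list was -0.43, against -0.00092 over all genes, with -0.45 on the astaxanthin diet and -0.39 on the placebo diet. With spots of all array columns in use all 19 were tested and 15 were lower in every pair, while Ttr, Calml4, Enpp2 and Kcnj13 were not. On the columns used, the exception was Ttr, the thyroid hormone and retinol carrier of the cerebrospinal fluid, whose probe was saturated on all 8 arrays and so gives no order. These genes had been picked as choroid plexus markers with earlier results of these samples known.

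Because these genes were lower together, the 250 bases before the start of transcription are shown for F5, Kcne2 and Otx2, the 3 with the smallest p-values, and for Slc4a5, Kcnj13 and Cldn2, which with Otx2 are those that hold the letters TATAAA. The sequences are from RefSeq (GRCm38.p6), which matched 11 of the 15 tested genes, and run 5′ to 3′ along the gene, with the letters TATAAA, read on either strand, in capitals.
F5, chr1:164151585-164151834, plus strand: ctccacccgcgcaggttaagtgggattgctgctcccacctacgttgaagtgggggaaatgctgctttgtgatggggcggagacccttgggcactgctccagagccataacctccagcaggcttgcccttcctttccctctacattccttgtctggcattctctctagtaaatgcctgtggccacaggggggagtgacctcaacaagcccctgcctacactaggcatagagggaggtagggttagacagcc
Kcne2, chr16:92292139-92292388, plus strand: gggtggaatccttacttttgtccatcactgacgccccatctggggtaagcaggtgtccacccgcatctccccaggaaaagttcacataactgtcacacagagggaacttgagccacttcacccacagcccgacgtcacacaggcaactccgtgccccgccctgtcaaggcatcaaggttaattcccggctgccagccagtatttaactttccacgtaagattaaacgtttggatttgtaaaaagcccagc
Otx2, chr14:48667645-48667894, minus strand: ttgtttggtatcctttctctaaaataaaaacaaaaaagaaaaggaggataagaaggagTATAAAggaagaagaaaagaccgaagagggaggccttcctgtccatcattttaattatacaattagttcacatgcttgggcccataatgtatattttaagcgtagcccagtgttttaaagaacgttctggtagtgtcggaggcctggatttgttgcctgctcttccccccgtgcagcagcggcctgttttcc
Slc4a5, chr6:83237125-83237374, plus strand: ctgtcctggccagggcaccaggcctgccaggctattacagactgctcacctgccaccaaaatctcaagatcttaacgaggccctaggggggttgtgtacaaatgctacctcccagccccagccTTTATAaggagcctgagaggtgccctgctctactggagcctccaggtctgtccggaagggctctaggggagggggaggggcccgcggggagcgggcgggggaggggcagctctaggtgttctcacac
Kcnj13, chr1:87394730-87394979, minus strand: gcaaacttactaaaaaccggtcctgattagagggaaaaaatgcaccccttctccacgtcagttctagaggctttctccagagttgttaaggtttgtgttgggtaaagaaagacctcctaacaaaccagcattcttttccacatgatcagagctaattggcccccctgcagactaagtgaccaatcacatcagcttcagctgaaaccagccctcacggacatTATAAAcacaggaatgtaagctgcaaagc
Cldn2, chrX:139800558-139800807, plus strand: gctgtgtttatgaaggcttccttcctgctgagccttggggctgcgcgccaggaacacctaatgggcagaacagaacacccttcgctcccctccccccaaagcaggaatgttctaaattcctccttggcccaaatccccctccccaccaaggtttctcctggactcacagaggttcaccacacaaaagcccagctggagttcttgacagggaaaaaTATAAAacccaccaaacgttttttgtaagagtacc
TATAAA, the letters of a TATA box, occurred anywhere in the window and on either strand in 4 of the 11 promoters (36.4%) and in 13.0% of all 27025 promoters of the same length. The match is of letters only and takes no account of their distance to the start of transcription. Neither TAATCC, bound by OTX factors, nor TGTTTAC, bound by forkhead factors, was found on either strand in the 11, while 6.38% and 3.09% of all promoters hold them.

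The first members by role are those that move ions. Kcne2, a potassium channel beta subunit of the epithelium's apical face, had relative signals of 1.71 and 2.04 in ME and 1.53 and 1.79 in AX+ME, against 2.38 and 2.80 in SED and 2.05 and 2.58 in AX. The lowest sedentary value, in the Cy3 array of AX, was only just above the highest exercised one, in the Cy5 array of ME. Within each dye the groups were clearly apart. Its difference was -0.47 ± 0.035 (SE), a ratio of 0.721 exercised over sedentary, with an adjusted p of 0.0749 by limma with Benjamini-Hochberg adjustment over all genes. Kcnj13, an inwardly rectifying potassium channel, had 2.59 and 3.03 in ME and 2.51 and 2.62 in AX+ME, against 3.42 and 3.74 in SED and 3.39 and 3.97 in AX. Every exercised array lay below every sedentary one, and the difference was -0.44 ± 0.054 (SE). Slc4a5, a sodium bicarbonate cotransporter, had 0.457 and 0.483 in ME and 0.475 and 0.472 in AX+ME, against 0.599 and 0.662 in SED and 0.686 and 0.675 in AX, which do not overlap either. Its difference was -0.47 ± 0.047 (SE). Clic6, an intracellular chloride channel protein, differed by -0.35 ± 0.038 (SE). Cldn2, the tight junction protein that lets cations and water pass between epithelial cells, differed by -0.29 ± 0.083 (SE), with -0.45 on astaxanthin and -0.13 on placebo. That was the widest gap between diets in the list (for the interaction, adjusted p = 0.425 by limma, unadjusted p = 0.025).

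Among carriers and secreted proteins, F5, coagulation factor V, had the largest difference of the list. It stood at 0.597 and 0.563 in ME and 0.597 and 0.569 in AX+ME, against 0.919 and 0.839 in SED and 0.854 and 0.792 in AX. The 4 exercised arrays lay close together and all below the lowest sedentary array. The difference was -0.55 ± 0.038 (SE), a ratio of 0.684, with an adjusted p of 0.0749 by limma, and a second F5 probe gave -0.45 and was lower in all 4 pairs too. Folr1, the folate receptor that carries folate into the cerebrospinal fluid, had 4.24 and 3.70 in ME and 3.85 and 3.53 in AX+ME, against 5.64 and 4.77 in SED and 5.28 and 4.64 in AX. No exercised value reached the lowest sedentary one, and the difference was -0.41 ± 0.036 (SE, adjusted p = 0.106 by limma). Ecrg4 (augurin), a secreted peptide precursor, differed by -0.46 ± 0.050 (SE), and Wfdc2, a small protein with the fold of protease inhibitors, by -0.46 ± 0.041 (SE), with -0.34 for a second Wfdc2 probe. Sostdc1, a secreted antagonist of BMP and Wnt signals, differed by -0.36 ± 0.045 (SE), with -0.32 for its second probe. Kl, the gene for klotho, a coreceptor for FGF23, had 2.78 and 2.98 in ME and 2.78 and 2.85 in AX+ME, against 3.34 and 3.55 in SED and 3.65 and 3.66 in AX, a difference of -0.32 ± 0.042 (SE) with no overlap.

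Otx2, the homeobox factor that marks and maintains the choroid plexus epithelium, had 1.40 and 1.49 in ME and 1.29 and 1.42 in AX+ME, against 1.96 and 2.01 in SED and 1.75 and 1.82 in AX. All exercised arrays were lower than all sedentary arrays. Its difference was -0.43 ± 0.036 (SE, adjusted p = 0.106 by limma). Steap1, a membrane protein of the metalloreductase family, differed by -0.48 ± 0.051 (SE), with relative signals of 0.797 to 0.937 in the exercised arrays and 1.14 to 1.29 in the sedentary arrays. Tmem72, a transmembrane protein enriched in choroid plexus, had the smallest difference of the 14, -0.14 ± 0.050 (SE), with pair differences of -0.02 to -0.21.

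**Figure D1:**
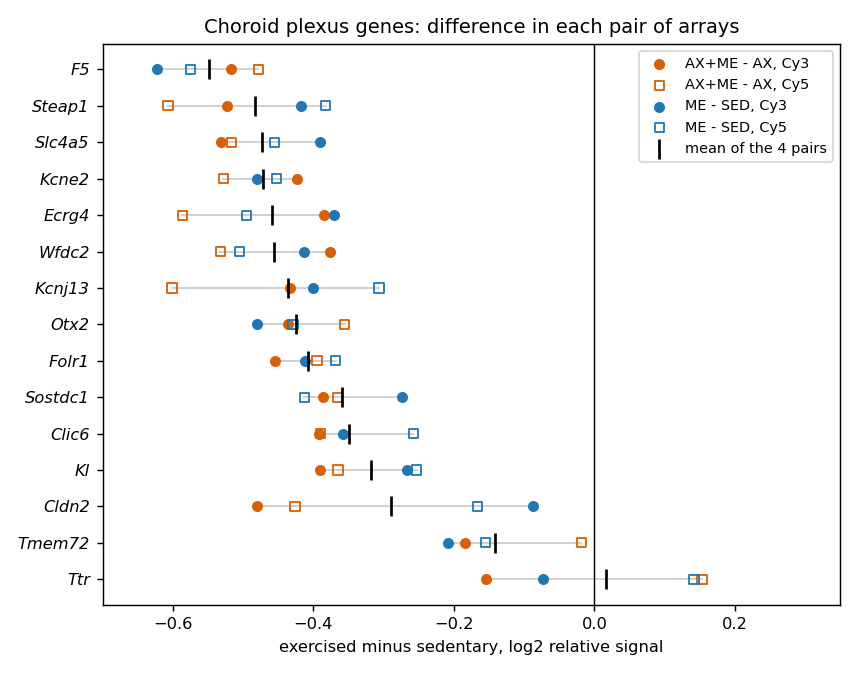
Difference in log2 relative signal, exercised minus sedentary, for the 15 choroid plexus genes tested, with 1 point for each of the 4 pairs of arrays and a bar for their mean. For 14 genes all 4 points lie below 0, and for Ttr, saturated on every array, they lie on both sides.

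Summed over the 14 genes not saturated, relative signal was 25.1 to 27.7 in the exercised arrays and 33.5 to 35.8 in the sedentary arrays. The ratio of exercised to sedentary was 0.749 and 0.728 in the astaxanthin pairs (Cy3 and Cy5) and 0.769 and 0.773 in the placebo pairs. The 2 diets share no array, so the astaxanthin and placebo differences come from separate samples. Other neighbouring tissues were measured on the same arrays. Ependymal cilia genes summed to 11.3 to 11.7 in exercised and 11.6 to 13.2 in sedentary arrays, and overlapped. Meningeal fibroblast genes, 9 not saturated, summed to 5.03 and 4.94 in ME against 6.41 and 6.63 in SED, but to 6.86 and 6.96 in AX+ME against 6.11 and 6.18 in AX. The 3 pituitary hormone genes tested summed to 0.589 and 0.596 in ME against 1.35 and 1.27 in SED, and to 0.921 and 0.894 in AX+ME against 0.994 and 0.943 in AX. Of the 36 lists, these sums of exercised and sedentary arrays did not overlap for the choroid plexus and pituitary lists only. What part dissection or these other tissues have in the choroid plexus difference was not tested.

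**Figure D2:**
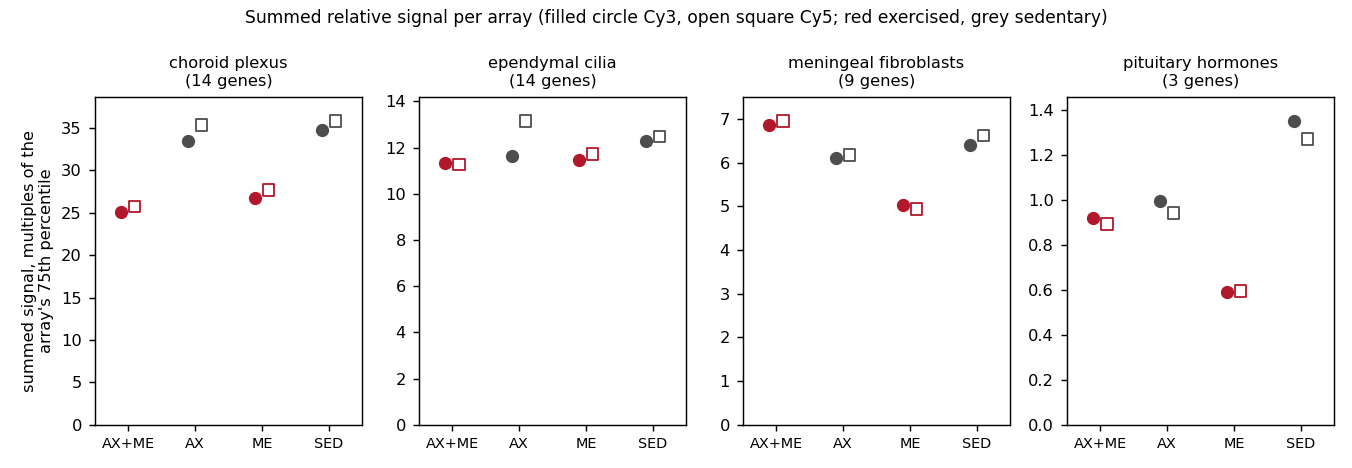
Summed relative signal of 4 lists of neighbouring tissues on each array, in multiples of the array's 75th percentile, with AX+ME beside AX and ME beside SED. The choroid plexus sum is 25.1 to 27.7 in the exercised groups and 33.5 to 35.8 in the sedentary groups, while the meningeal sum is higher in AX+ME than in AX and lower in ME than in SED.

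Genes of ependymal motile cilia were lower too, by less. Of 14 tested, 12 had a difference below 0, and 7 were lower in all 4 pairs (12.9% of all genes were). An unadjusted p below 0.05 in that direction by limma was found for 6 (7.8% of all genes), and the list median was -0.14. Tekt1, a tektin of the ciliary microtubules, had 0.779 and 0.707 in ME and 0.793 and 0.729 in AX+ME, against 0.918 and 0.867 in SED and 0.879 and 0.819 in AX. The exercised arrays were all below the sedentary ones, and the difference was -0.21 ± 0.039 (SE). Dnah11, a heavy chain of the ciliary dynein motor, differed by -0.28 ± 0.066 (SE), at relative signals of 0.0858 to 0.0997 in exercised and 0.106 to 0.120 in sedentary arrays. Rsph1, a radial spoke protein, differed by -0.17 ± 0.044 (SE), and Ccdc153, a ciliary coiled-coil protein, by -0.16 ± 0.044 (SE).

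Meningeal fibroblast genes showed no exercise difference that held over both diets. All 10 tested had a mean difference below 0, but none had the same sign in all 4 pairs. Their median was 0.19 on the astaxanthin diet and -0.43 on the placebo diet, and 8 of the 10 had an unadjusted interaction p below 0.05, where 10.6% of all genes did. No gene passed the limma interaction test after adjustment (smallest adjusted p 0.131).

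Pituitary hormones and the hypothalamic peptide gene Trh had exercise differences that varied with the diet. Prl, prolactin, was at 0.010 and 0.015 in ME, not well above background on either array, and at 0.079 and 0.077 in AX+ME, against 0.074 and 0.079 in SED and 0.082 and 0.094 in AX. It was thus low in both ME arrays and alike in the other 3 groups, and although lower in all 4 pairs its astaxanthin differences were only -0.04 and -0.29. Gh, growth hormone, was at 0.014 and 0.016 in ME against 0.036 and 0.057 in SED, but at 0.077 and 0.071 in AX+ME against 0.063 and 0.054 in AX. On the Cy5 array of ME it was not well above background. Pomc, the precursor of corticotropin and melanotropin, was lower in all 4 pairs, at 0.565 on both ME arrays and 0.764 and 0.746 in AX+ME, against 1.24 and 1.14 in SED and 0.850 and 0.795 in AX. Its difference was -0.12 on astaxanthin and -1.07 on placebo. Trh, thyrotropin-releasing hormone, was at 0.097 and 0.088 in ME against 0.304 and 0.250 in SED, and at 0.117 and 0.115 in AX+ME against 0.085 and 0.068 in AX. These genes were named whatever their values, and their adjusted interaction p-values by limma were 0.131 to 0.310.

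**Figure D3:**
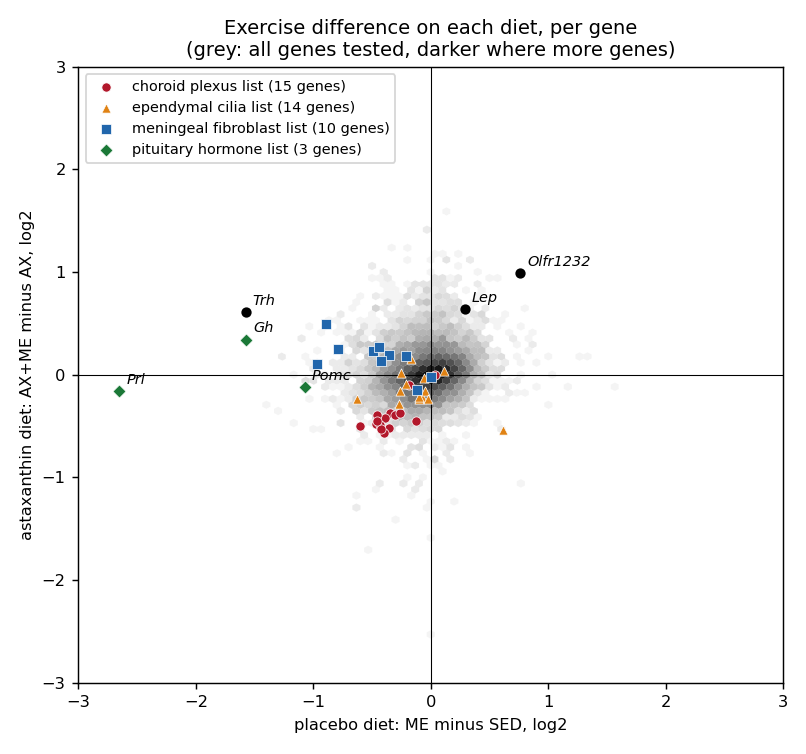
Log2 difference of AX+ME minus AX (astaxanthin diet, vertical) and of ME minus SED (placebo diet, horizontal) for the 20085 genes tested, with 4 lists of neighbouring tissues in colour, and 2 genes outside the plotted range. Choroid plexus genes lie below 0 on both axes apart from saturated Ttr, and meningeal fibroblast genes have a median of 0.19 on the vertical and -0.43 on the horizontal axis.

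Across all genes the exercise differences of the diets were weakly related. Pearson's r between the astaxanthin and the placebo difference was 0.113 (Spearman's rho 0.194) over 20085 genes, and 0.159 (0.235) over the 17796 well above background on all arrays. Between the Cy3 and Cy5 pairs of a diet, r was 0.246 on astaxanthin and 0.206 on placebo. Genes are not independent replicates, and all pairs lay on 1 slide. By itself, the astaxanthin difference had 1971 genes at an unadjusted p below 0.05 (9.81%) and the placebo difference 3705 (18.4%), with 0 genes past an adjusted p of 0.05 in either by limma (smallest 0.112 and 0.0783).

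Among the genes higher in exercised mice, the 15 with the largest smallest-pair difference had differences above 0.30 in every pair, and 43 of all genes (0.214%) had them. Differences below -0.30 in every pair were found for 53 (0.264%). The values that chose these 15 are given here as a description. Olfr1232, an olfactory receptor gene, was at 0.034 and 0.036 in ME against 0.020 and 0.022 in SED, and at 0.064 and 0.063 in AX+ME against 0.031 and 0.033 in AX. It was higher within each diet, though ME and AX lay close together, and the difference was 0.87 ± 0.064 (SE, adjusted p = 0.0749 by limma). Xlr3b, of an X-linked lymphocyte-regulated gene family whose near-identical copies may share the probe, was at 0.772 and 0.770 in ME and 0.689 and 0.717 in AX+ME, against 0.479 and 0.508 in SED and 0.492 and 0.527 in AX. The groups were far apart on both diets, with a difference of 0.55 ± 0.051 (SE, adjusted p = 0.108 by limma). Lbhd2, a gene of little known function, was at 1.43 and 1.40 in ME and 0.981 and 0.954 in AX+ME, against 0.747 and 0.827 in SED and 0.722 and 0.743 in AX, so that ME stood highest. Its difference was 0.63 ± 0.104 (SE), with 0.40 on astaxanthin and 0.85 on placebo.

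Dop1a, of a family that acts in Golgi and endosome traffic, differed by 0.42 ± 0.041 (SE), and Aph1a, a subunit of gamma-secretase, by 0.42 ± 0.053 (SE). With spots of all array columns in use both turned below 0, Dop1a to -0.00728 and Aph1a to -0.110. Isl1, a LIM homeobox factor of striatal, motor and sensory neurons, was dim, at 0.030 and 0.031 in ME and 0.024 and 0.022 in AX+ME, against 0.012 and 0.014 in SED and 0.016 and 0.017 in AX. Its difference was 0.84, with 0.48 on astaxanthin and 1.20 on placebo. On the Cy5 arrays of SED and AX it lay under the lowest signal well above background (1.58% and 2.57% of the 75th percentile). It thus passed the filter on dim probes only through the exercised groups, where it is higher, so its difference is given no test. Also dim were Crygf, Hlx and Shroom3. Crygf, a lens crystallin, differed by 0.73 ± 0.122 (SE), Hlx, a homeobox factor, by 0.75 ± 0.192 (SE), and Shroom3, an actin-binding regulator of cell shape, by 0.61 ± 0.131 (SE). With normexp background correction the differences of the dim genes were smaller, at 0.51 for Olfr1232, 0.31 for Isl1, 0.32 for Hlx and 0.26 for Shroom3. The remaining 6 were Olfr905, Olfr166, Olfr441, Ankrd53, Ankrd55 and Lce3b, so that 4 of the 15 were olfactory receptor genes, and 10 of the 15 were well above background on all 8 arrays.

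Of the 15 genes lower in exercised mice by the same rule, 7 were on the choroid plexus list (F5, Kcne2, Slc4a5, Steap1, Wfdc2, Ecrg4 and Folr1). Krt23, a type I keratin, was at 0.104 and 0.098 in ME and 0.096 and 0.080 in AX+ME, against 0.148 and 0.132 in SED and 0.129 and 0.125 in AX. All exercised values were lower than all sedentary ones, with a difference of -0.50 ± 0.049 (SE, adjusted p = 0.118 by limma). Tmprss11a, a membrane serine protease of epithelia, differed by -0.52 ± 0.054 (SE), and Rbp7, a cellular retinol-binding protein, by -0.52 ± 0.086 (SE). In each of the other 5, a sedentary Cy5 array stood above the other sedentary arrays. Olah, a thioesterase of fatty acid synthesis, was at 0.020 and 0.012 in ME and 0.020 and 0.010 in AX+ME, against 0.030 and 0.230 in SED and 0.039 and 0.060 in AX, so that the Cy5 array of SED was by far the highest. Kctd7, Sbpl, Cdh3 and Iigp1 had pair differences of -0.37 to -4.02, and Iigp1 differed by 0.0276 with spots of all array columns. Olah, Kctd7, Sbpl and Iigp1 were well above background on 2 of the 4 exercised arrays.

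**Figure D4:**
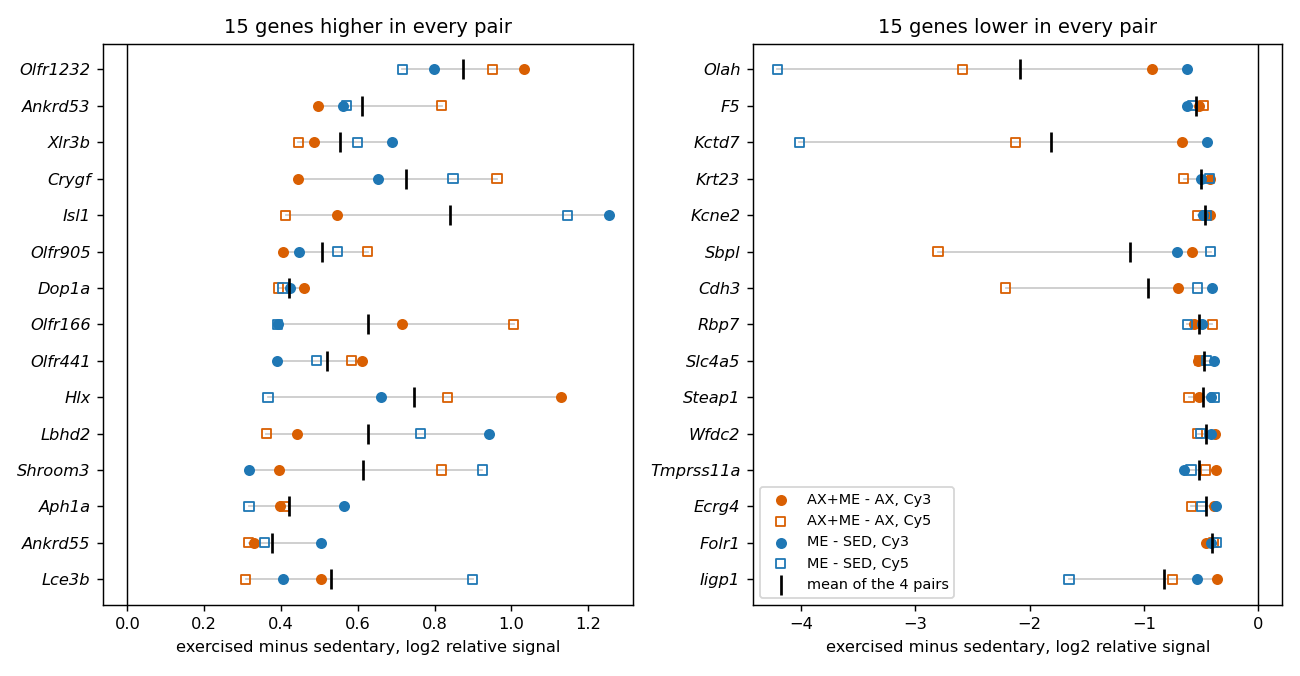
Pair differences in log2 relative signal, exercised minus sedentary, of the 15 genes higher and the 15 genes lower in every pair with the largest smallest-pair difference. Olfr1232 leads the higher genes at 0.87, and the 4 points of the 7 choroid plexus genes among the lower ones lie close together, while those of Olah lie between -0.62 and -4.21.

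The study's title concerns leptin, new neurons and memory. Lep, leptin, was dim, at 0.012 and 0.016 in ME and 0.022 and 0.023 in AX+ME, against 0.010 and 0.013 in SED and 0.015 and 0.014 in AX. The exercised array was the higher in all 4 pairs, with ME level with AX. Lep passed the filter on dim probes only through AX+ME, where it is highest, so its difference is given no test. The probe is spotted 8 times on the columns used, of which 8 and 5 spots were well above background in AX+ME and 4 and 0 in ME, against 7 and 0 in AX and 2 and 1 in SED. Exercised spots were the higher in 7 and 5 of 8 in the astaxanthin pairs and in 4 and 5 of 8 in the placebo pairs. Lepr, its receptor, differed by 0.02 ± 0.048 (SE) by its brightest probe. A much dimmer Lepr probe gave -0.25 and was lower in 2 of the 4 pairs, and another gave -0.30 and was lower in all 4. Over the 14 tested genes of leptin signalling, Lep included, the median was -0.06. In all 4 pairs 1 was higher and 4 were lower, where 12.7% and 12.9% of all genes were. The higher one was Lep itself, so no other gene of the list was higher throughout. Among the 4 lower ones was Ptpn2, a phosphatase that restrains JAK kinases, at -0.13 ± 0.040 (SE) but 0.0461 with spots of all array columns.

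Bdnf, the neurotrophin most tied to running in rodents, was at 2.58 and 2.80 in ME and 2.31 and 2.57 in AX+ME, against 2.69 and 2.84 in SED and 2.35 and 2.72 in AX. It was lower in every pair by very little, -0.05 ± 0.037 (SE, unadjusted p = 0.254, limma), less than the gap between the dyes. Of 8 neurotrophin and receptor genes 2 were higher and 1 lower in all 4 pairs, against 12.7% and 12.9% of all genes. Of 11 growth factor and receptor genes 4 were higher and 2 lower in all 4 pairs (12.7% and 12.9% of all genes were), with a list median of -0.05. Among the higher ones was the VEGF receptor Kdr, for which a second, dimmer probe gave -0.14 and was lower in all 4 pairs. Vegfb, a member of the VEGF family, was higher at 0.16 ± 0.042 (SE) and the receptor Fgfr2 at 0.16 ± 0.046 (SE), while Igf2r, the receptor that clears insulin-like growth factor 2, was lower at -0.11 ± 0.042 (SE).

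For neural stem and progenitor cells, 1 of 7 genes was higher and 2 were lower in all 4 pairs. Gfap, the intermediate filament of astrocytes and stem cells, was higher at 0.21 ± 0.082 (SE), with 0.07 on astaxanthin and 0.34 on placebo. Of 13 proliferation genes 1 was higher and 1 lower in all 4 pairs, and of 4 immature neuron genes 1 was lower, where 12.7% and 12.9% of all genes were higher and lower throughout.

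Some neuronal genes differed by small amounts. Slc32a1, the vesicular transporter of GABA, was higher at 0.22 ± 0.055 (SE), though at -0.0510 with spots of all array columns, and Crhbp, a binding protein of corticotropin-releasing hormone found in interneurons, at 0.16 ± 0.035 (SE). They were 2 of the 9 interneuron genes, and none of the 9 was lower in all 4 pairs (12.7% and 12.9% of all genes were higher and lower). Grin1, the obligatory subunit of NMDA receptors, was higher at 0.27 ± 0.064 (SE), whereas Grin2a, another NMDA receptor subunit, was lower at -0.11 ± 0.037 (SE) and Gria2, an AMPA receptor subunit, at -0.08 ± 0.031 (SE). A second Gria2 probe of similar brightness gave -0.02 and was lower in only 2 of the 4 pairs. The 12 plasticity genes had a median of 0.01. Of the hypothalamic peptides, Cartpt was at 0.738 and 0.797 in ME and 0.701 and 0.763 in AX+ME, against 0.582 and 0.622 in SED and 0.636 and 0.649 in AX, all exercised arrays above all sedentary ones. Its difference was 0.27 ± 0.048 (SE, adjusted p = 0.208 by limma). Ghrh, growth hormone-releasing hormone, was higher at 0.30 ± 0.076 (SE), and Oxt, oxytocin, was lower at -0.32 ± 0.076 (SE).

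In energy metabolism, Slc16a1, the lactate transporter MCT1, was higher in all 4 pairs. It was at 0.307 and 0.397 in ME and 0.343 and 0.437 in AX+ME, against 0.267 and 0.348 in SED and 0.317 and 0.390 in AX. The gap between dyes was wider than that between activity levels, and within each dye and diet the exercised array was the higher, by 0.17 ± 0.035 (SE, unadjusted p = 0.0037, adjusted p = 0.231 by limma). Pygb, brain glycogen phosphorylase, was higher at 0.13 ± 0.042 (SE). These were 2 of the 8 lactate and glucose genes, and none was lower in all 4 pairs, beside 12.7% of all genes higher and 12.9% lower. Among 27 respiratory chain genes 2 were higher and 2 lower in all 4 pairs, with a median of 0.00. Uqcrc1, a core subunit of complex III, was 1 of the higher ones, at 0.14 ± 0.033 (SE). The 2 lower ones were Uqcrb and Cox7c.

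Of 19 immediate early genes 3 were lower and none higher in all 4 pairs, a share of lower genes near that of all genes (12.9%). Klf4, a zinc finger factor, was lower at -0.26 ± 0.059 (SE), Jun, a subunit of AP-1, at -0.19 ± 0.054 (SE), and Egr2 at -0.13 ± 0.048 (SE). Of 11 glucocorticoid-related genes 2 were lower and none higher in all 4 pairs (12.9% and 12.7% of all genes were), with a list median of -0.03. Nr3c1, the glucocorticoid receptor, was lower at -0.13 ± 0.042 (SE) and Lcn2, an acute phase protein, at -0.31 ± 0.106 (SE). A second, dimmer Nr3c1 probe gave -0.03 and was lower in 3 of the 4 pairs. For Lcn2 the astaxanthin difference was -0.55 and the placebo difference -0.07. H2-Ab1, a class II histocompatibility chain, was lower at -0.43 ± 0.117 (SE), with -0.17 on astaxanthin and -0.69 on placebo. Of 13 antioxidant genes 1 was higher and 2 were lower in all 4 pairs (12.7% and 12.9% of all genes were), with a list median of -0.09. The higher one was Hmox1, heme oxygenase 1, at 0.10 ± 0.034 (SE), and the lower ones were Sod3 and Gclc.

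**Figure D5:**
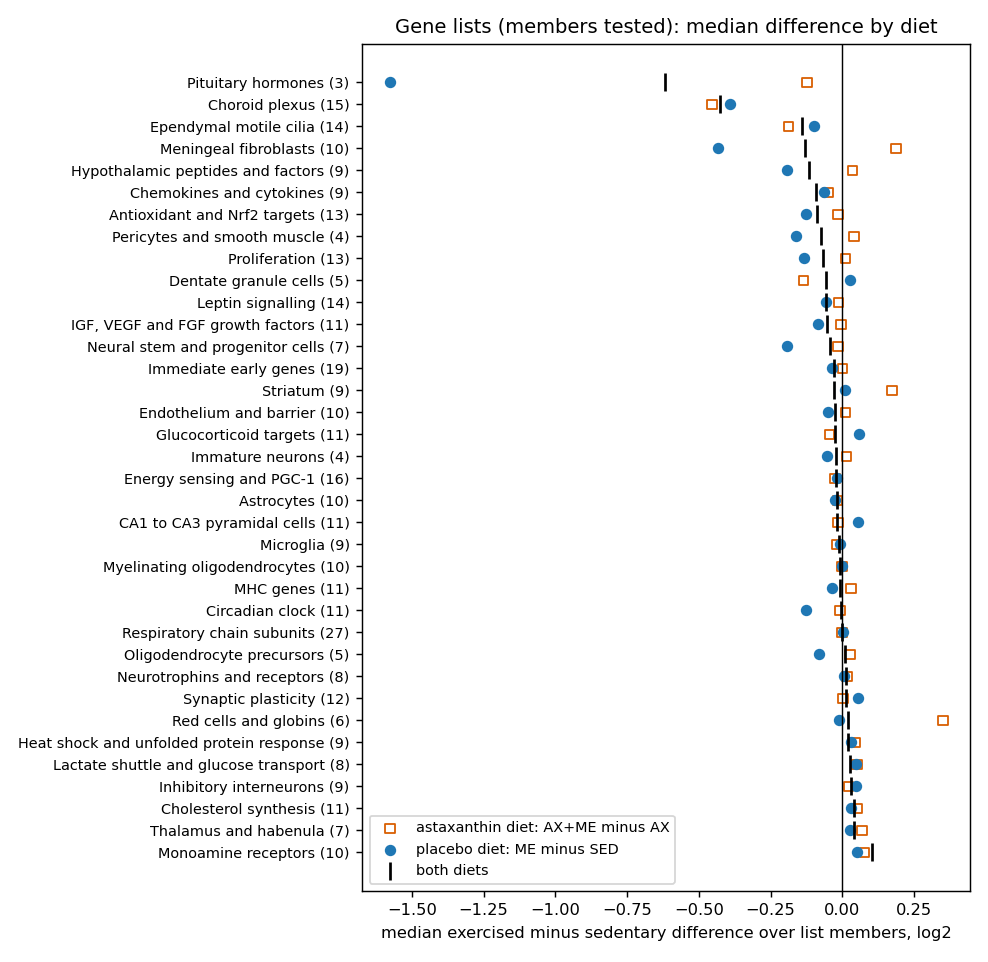
Median log2 difference of the members of each of the 36 lists on the astaxanthin diet (AX+ME minus AX), on the placebo diet (ME minus SED) and over both, with the number of members tested. The choroid plexus list stands at -0.45 on the astaxanthin and -0.39 on the placebo diet, and most other lists lie near 0 or, as for meningeal fibroblasts, on different sides of 0 on the 2 diets.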

How the data were processed

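Total RNA of ground hippocampus (RNeasy Mini kit, per the labels) was labelled with Cy3 or Cy5 and hybridised to SurePrint G3 mouse 8x60K arrays, 1 labelled sample on each. The deposited scanner files give each spot's intensity, which the authors' scanner software background-subtracted and detrended within the array per the file headers. The submitters' processing notes name that software as Agilent Feature Extraction, version 11.0.1.1. Nothing was scaled between arrays.

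From these intensities, the own-dye processed signal of the 34334 non-control spots from column 70 on was divided by the array's 75th percentile, floored at 0.01 (1%) and taken as log2. Spots of a probe were averaged, and 21919 of 32411 probes were kept, those that in some group exceeded background clearly (the scanner's flag) on both its arrays. 9 probes with a non-uniform spot were left out. The brightest probe stood for its gene. RefSeq accessions (GRCm38.p6) gave 10549 of the 20085 tested a symbol, and 9536 have none. The difference was fitted with limma 3.58.1 in R 4.3.3 (lmFit and eBayes, two-sided, Benjamini-Hochberg over all 20085) with diet and dye as additive terms, and differences within a diet and the interaction in a model with a term per group and dye. The fit was tested on simulated data with 200 changed genes. The channel without a sample was used only to check that it was empty.

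Genes named are, among those with a symbol, the same sign in all 4 pairs and a signal well above background on all 4 arrays of an activity level, the 15 higher and 15 lower with the largest smallest-pair difference, up to 4 members of each of 36 lists by p, and Lep, Lepr, Bdnf, Prl, Gh, Trh and Pomc; not all are described. The members and lists were chosen with earlier results of these data known. Alternatives tried were all array columns, other scalings (array median, quantile, a percentile over all columns), normexp with offset 50 on the median signal and its background median (the mean signal first planned was not used here), other dim-probe filters, no dye term, pairs as a block, 1 dye alone, the mean over probes, the deposited value table (the same intensities rounded), other floors (chosen after seeing the data) and each array left out.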

Additional observations from a re-analysis of the deposited data

Results flagged for a closer look

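The exercise differences on the 2 diets had opposite signs, in every pair, for 2 of the genes named whatever their values. Trh had a difference of 0.61 on astaxanthin and -1.58 on placebo, so that the astaxanthin minus placebo gap was 2.18 (for the interaction, adjusted p = 0.131 by limma, unadjusted p = 1.7e-05). Gh had 0.34 on astaxanthin and -1.58 on placebo, a gap of 1.92 (for the interaction, adjusted p = 0.310 by limma, unadjusted p = 0.0028). Since Gh was not well above background on the Cy5 array of ME, the size of its placebo difference is uncertain. The median over the meningeal fibroblast genes likewise differed between diets by 0.62 (0.19 on astaxanthin, -0.43 on placebo). For this list the difference was not tested. In the channel that held no labelled sample, at most 907 of the 59305 spots of an array (1.53%) were well above background. On that array, the first of AX+ME, 667 of them were saturated in the sample's own channel.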

How the results depend on the processing

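Choroid plexus genes lower in every pair numbered 13 to 15 over the 21 alternatives that give this count: 15 of 19 tested with all array columns, 15 of 15 on Cy3 arrays alone, 13 with the array median and with normexp (Tmem72 was then not lower in every pair), and 14 in the others, those that leave out 1 array included, and the list's median lay between -0.39 and -0.45 over its 24. The exercise test over both diets called 0 genes under 23 of 24 alternatives (limma, 990 to 3642 at an unadjusted p below 0.05) and 9 with genes limited to those well above background on all 8 arrays, where fewer genes were tested. With the 4 pairs as a replicate block it called 0 (2604 unadjusted), and no named gene passed under it. The block was not run for the tests within a diet or the interaction. Unadjusted counts were 1933 without the dye term, 1451 on Cy3 arrays and 990 on Cy5 arrays alone, and 1867 to 2995 with 1 array left out. Genes of 1 sign numbered 11255 (5242 higher, 6013 lower) on Cy3 and 11345 (5971, 5374) on Cy5 arrays alone, with 2 pairs each, and 6694 to 8113 (3297 to 4087 higher, 3397 to 4026 lower) with 1 array and so 1 pair left out. With all array columns 3851 were higher and 3667 lower in all pairs, of 32333 tested. The placebo difference called 682 genes with all columns, which brings in the dim areas of the SED arrays, 83 with no filter on dim probes, 1 with quantile normalization, 2 with normexp, 2 with the filter on all 8 arrays, 4 without dye, and 0 to 23 with 1 array left out (23 without the first ME array). The astaxanthin difference called 4 with no filter and 0 to 44 with 1 array left out (44 without the first AX array). The interaction called 139 with all columns, 8 with no filter, and 0 to 19 with 1 array left out (19 without the first AX array). Apart from these settings, counts of the 3 tests stayed at 0.

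Of genes named, 6 changed sign with all columns: Dop1a (-0.00728), Aph1a (-0.110), Iigp1 (0.0276), Slc32a1 (-0.0510), Lepr (-0.0476) and Ptpn2 (0.0461). Lepr also did so with the percentile over all columns (-0.00698), the mean over probes (-0.179) and Cy3 arrays alone (-0.0376), and lay between -0.0220 (without the second SED array) and 0.0554 (without the first) with 1 array left out. The all-columns setting left the scaling percentile as it was and brought in spots of the lower columns. Another probe, or more spots of a probe, could then stand for a gene, while others such as F5 kept their difference (-0.55). For Lepr, the mean over probes took in the dimmer probes at -0.25 and -0.30 beside the brightest at 0.02. Why the lower-column spots differ was not tested, nor was the cause of the remaining Lepr changes. Over the alternatives 32 of the 65 genes given with a difference moved by over 1.5 times or changed sign, the 6 that changed sign with all columns included. Signal over background limits the dim ones: Lep lay between 0.08 and 0.55, Olfr1232 between 0.51 and 0.93, Isl1 between 0.31 and 0.96, Hlx between 0.32 and 0.93, Shroom3 between 0.26 and 0.87, and Crygf between 0.40 and 0.91. Others that moved as far include Olah (-3.40 to -0.78), Kctd7 (-3.07 to -0.56), Sbpl (-1.61 to -0.50), Cdh3 (-1.37 to -0.55), H2-Ab1 (-0.51 to -0.21), Gfap (0.06 to 0.27), Ghrh (0.16 to 0.43), Trh (-0.80 to -0.19) and Jun (-0.25 to -0.08).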

Other observations

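Olfactory receptor genes, a very large family of odorant receptors, tended to lie above 0. Of 142 tested, 103 were higher in exercised mice (72.5%), 31 were higher and 4 lower in all 4 pairs (21.8% and 2.82%, against 12.7% and 12.9% of all genes), and the median was 0.12, with 0.20 on astaxanthin and 0.07 on placebo. They were dim, with a median level of 3.82% of the 75th percentile. Other genes at similar levels were higher in 47.9% (under 3% of the percentile), 51.2% (3 to 6%) and 48.7% (6 to 12%) of cases, where olfactory receptor genes were in 63.6%, 84.2% and 74.1%. Among the 90 well above background on all 8 arrays, 70 were higher, 22 in all 4 pairs and 2 lower in all 4, with a median of 0.12. Of all 17796 genes under that filter 49.7% were higher, and 13.3% were higher and 13.3% lower in all 4 pairs. The family was looked at after its values were seen, and many of its genes are near-identical copies, so that a probe's gene name is uncertain.

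Of 24 collagen genes tested, taken by symbol, 10 had a difference above 0, and 1 was higher and 6 were lower in all 4 pairs (12.7% and 12.9% of all genes were), with a median of -0.05 (-0.00486 on astaxanthin and -0.108 on placebo). Vomeronasal receptor genes, 34 tested and as dim as the olfactory ones, had a median of -0.00065, with 3 higher and 3 lower in all 4 pairs. Of 39 keratin genes 9 were higher and 4 lower in all 4 pairs, against the same shares of all genes.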
